A study of Microtus ochrogaster with 23 samples.

Results

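Very deeply read cytosines were described in the RRBS data of the prairie vole (Microtus ochrogaster) dentate gyrus (DG), a part of the hippocampus. They were chosen by depth alone, as CpG cytosines off chromosome X with at least 5 times the median depth of the animal's own library in all 23 animals, and their methylation was not used. Of the 4051749 cytosines read in any animal, 6806 met this rule, and another 71 over the same depth on chromosome X were left out by it. Joined where they lay within 500 bp of each other, the 6806 cytosines formed 2116 loci. The animals were 6 “Attacker” and 6 “Parental” virgin males, which attacked or cared for a pup, and 5 “Father” and 6 “Mother” voles, which were pair-bonded and tested after the birth of their own litter. All were WT adults of similar age from a laboratory colony, and each library was made from 100 ng of DNA out of bilateral DG punches of 1 animal. DNA methylation counts hold no expression markers, so that the tissue label and the mix of cell types were not checked. The pairwise comparisons asked how the DG methylome differed with pup-directed behavior in males, with pair-bonding experience, and with sex in parents. “Attacker” males were taken from the pup at the first attack, so that pup-directed behavior cannot be told apart from time with the pup. “Father” voles lived with a mate and litter and virgin males with a brother, so that pair-bonding, fatherhood and housing cannot be told apart. The only females were “Mother” voles, so that sex cannot be told apart from pregnancy and giving birth.

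RRBS (reduced representation bisulfite sequencing) covers the ends of MspI fragments, which are rich in CpG. Bisulfite converts unmethylated but not methylated cytosines, and the methylation level given here is methylated reads as a percent of all reads at a cytosine. Aligned depth at a cytosine follows the number of fragments read there, and sequences that are present in many copies in a genome but in few copies in its assembly gather reads from all copies at one place. Mitochondrial DNA, of which a cell holds many molecules, is a known case, and ribosomal DNA and other repeats are further ones. In brain, as in other tissues, cytosines in CpG-dense promoters are mostly unmethylated and those in repeats are mostly methylated.

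The median depth of a listed cytosine was 19 to 43 reads per animal, so that the rule asked for 95 to 215 reads, and the number of calls per animal was 64896224 to 129376223. In a single animal 38540 to 88381 cytosines off chromosome X were over its threshold, and fewer were over it in all animals. The deeply read cytosines had a median of 424 reads per animal and at most 190778. At the fewest reads that occurred, 95, a level near 50% had a Wilson 95% interval from 40.6% to 60.4%, which covers counting error only, since the reads carry no molecular identifiers. The deeply read cytosines took 7.04% to 7.71% of all calls in replicates 1 and 2 of the 4 groups and 8.09% to 10.97% in the other replicates, with no overlap. The labels name no batch for this split, which was present in every group. Values within it are given for the mean levels and the mitochondrial share, and its part in the other comparisons was not tested. No 2 animals had the same counts at more than 0.309% of the deeply read cytosines.

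Places of this depth are candidates for repeats that the assembly holds in too few copies. Most of them lay on named chromosomes, as did most of the cytosines used for comparison. Of the 6806 cytosines, 4438 (65.2%) lay on 27 named chromosomes and linkage groups of MicOch1.0, 2328 (34.2%) on 144 unplaced scaffolds and 40 on the mitochondrial genome. The 426204 other cytosines, used for comparison where other cytosines are named, lay off chromosome X and had 10 reads or more in each of the 23 animals. Of these, 73.0% were on named sequences, 27.0% on unplaced scaffolds and 29 cytosines on the mitochondrial genome. Within gene spans of the RefSeq table were 54.3% of the deeply read cytosines on named sequences and 66.0% of the other cytosines there. On the named sequences, the deeply read cytosines were 0.373% to 2.15% of the cytosines with a read in every animal. Repeat annotation and the genome sequence were not analysed here, so that the copy number of these places was not checked, and the cytosines are called deeply read below.

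On some scaffolds deeply read cytosines were a large part of the cytosines read in all animals, a denominator that itself asks for reads. Among the 58 unplaced scaffolds with at least 10 of them, 7 had more than 30% of their cytosines with a read in every animal over the threshold. On scaffold JH996761.1 this held for 12 of 12 cytosines, at a mean level of 2.01% and a median depth of 144 times the animal's median. Scaffold JH996694.1 had 40 of 52, scaffold JH996962.1 had 17 of 29 and scaffold JH996676.1 had 30 of 63, with mean levels of 38.7%, 49.0% and 38.6%. Scaffold JH997195.1 had 15 of 37 at a mean level of 22.6%, and scaffold JH996867.1 had 14 of 43 at 58.3%. The most cytosines were on scaffold JH996631.1, where 93 of 273 in 10 loci were over the threshold, with a mean level of 37.1%. Of the cytosines with a read in any animal, these were smaller parts, such as 93 of 1352 on JH996631.1, 40 of 391 on JH996694.1, 17 of 280 on JH996962.1 and 30 of 371 on JH996676.1, against 12 of 23 on JH996761.1. The last cytosine read on these 7 scaffolds lay between position 4460 and position 110330, and all but scaffold JH996761.1 had an intermediate mean level. On scaffold JH996631.1, “Attacker” voles had 40.3% ± 12.7, “Parental” 36.7% ± 8.40, “Father” 40.3% ± 11.8 and “Mother” voles 31.7% ± 1.99 (SD, n = 6, 6, 5 and 6), with overlap between the groups.

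The mitochondrial cytosines included the deepest loci of all and were almost free of methylation calls. The 40 cytosines lay in 6 loci, which began at positions 227, 2408, 3985, 6407, 14694 and 15628 of the mitochondrial sequence. At the locus from 15628 to 16183, with 19 cytosines, the depth was 1820 times the animal's median (median over animals, range 1190 to 3280). At the locus from 227 to 418, with 10 cytosines, it was 1390 times (929 to 2340), and at the 2 cytosines from 3985 to 4012 it was 516 times. The mean levels of these 3 loci were 0.475%, 0.435% and 0.685%. The other 3 mitochondrial loci were shallower, at 253 times (from 6407), 117 times (from 2408) and 29.5 times (from 14694). The mitochondrial cytosines took 1.10% to 2.45% of all calls of an animal. Over their summed reads, 0.433% ± 0.057 (SD, n = 23) of calls were methylated, with a range of 0.375% in 1 “Mother” to 0.653% (Wilson 95% interval 0.635% to 0.671%) in “Attacker” animal 6. The group values were 0.458% ± 0.0998 in “Attacker” (n = 6), 0.437% ± 0.0367 in “Parental” (n = 6), 0.421% ± 0.0339 in “Father” (n = 5) and 0.414% ± 0.0273 in “Mother” (n = 6) voles, and these groups overlapped. The split by replicate number touched this measure too, with 0.375% to 0.422% in replicates 1 and 2 and 0.388% to 0.653% in the others. Its part in the group values was not tested.

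Most of the deeply read cytosines were unmethylated. Their mean level over the 23 animals had a median of 1.35%, and 67.8% of them were under 5%. Of the 6806, 5535 (81.3%) were under 20%, 981 (14.4%) between 20% and 80%, and 290 (4.26%) at 80% or over. Among the other cytosines, the corresponding shares were 93.1%, 5.36% and 1.58%, and the median level was 0.603%. The mean level was 12.6% for the deeply read and 5.18% for the other cytosines. On unplaced scaffolds 18.2% of the deeply read cytosines were between 20% and 80%, on named sequences 12.6%, and of the other cytosines 5.88% and 5.17%.

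The intermediate share moved with depth. In the plot of level classes by depth, mitochondrial cytosines are left out. Of the 859 cytosines whose median depth over animals was 5 to 10 times the animal's median, 3.84% were between 20% and 80%. From 10 to 20 times this share was 12.4% of 3323 cytosines, from 20 to 50 times 14.3% of 1829, and from 50 to 100 times 16.8% of 465. Over 100 times the median it was 67.2% of 290 cytosines in 48 loci, and 65.5% of these lay on unplaced scaffolds, against 30% to 34.2% in the shallower classes. The cytosines at 80% or over stayed between 1.28% and 5.86% in all 5 classes.

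**Figure D1:**
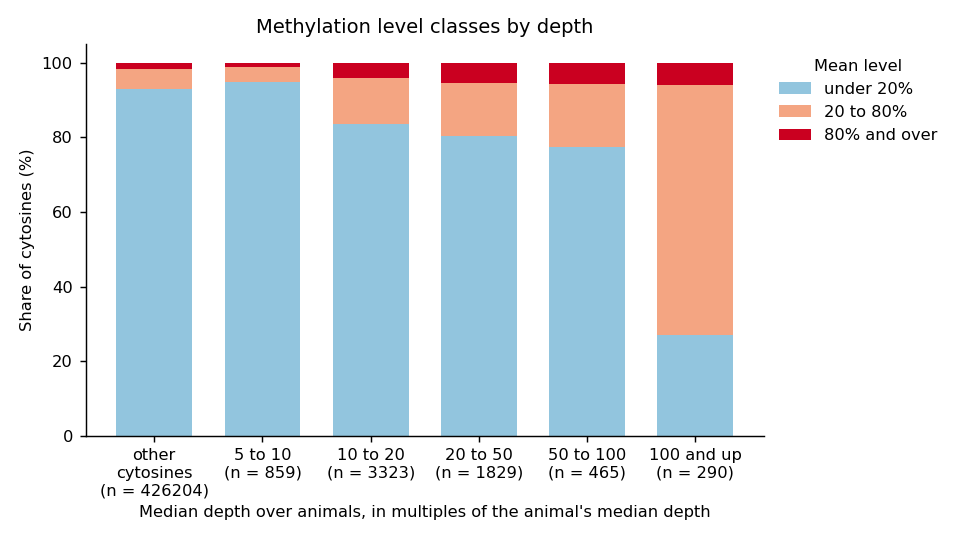
Share of cytosines (vertical axis, percent) with a mean methylation level under 20%, between 20% and 80%, and at 80% or over, for the 426204 other cytosines and for the deeply read cytosines in classes of median depth over the 23 animals (horizontal axis, in multiples of the animal's median depth; mitochondrial cytosines left out). The intermediate part of the bar is 3.84% at 5 to 10 times the median depth and 67.2% at 100 times and more.

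The cytosines next to the threshold were chosen by the same depth and are given without a test. The 3 cytosines just inside had a lowest depth of 5.0 times the median, at positions 14694 and 14721 of the mitochondrial sequence with levels of 0.796% and 0.311%, and at position 102390 of scaffold JH996494.1 with a level of 73.6%. The 3 just outside had 4.974 times, at positions 24584022 and 24584041 of chromosome 7 with levels of 3.55% and 0.121%, and at position 41302632 of chromosome 8 with a level of 31.2%.

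Deeply read cytosines had fewer read neighbors than other cytosines. Within 50 bp a deeply read cytosine had a median of 3 further cytosines read 10 times or more in all animals, and another cytosine had 7. The cytosine on the opposite strand of the same CpG was read that often for 16.1% of the deeply read and for 36.0% of the other cytosines. Of the 2116 loci, 606 held 1 cytosine, 1029 at least 3 and 70 at least 10, and loci with at least 3 had a median span of 60 bp and at most 914 bp. The deeply read positions thus lay in short stretches, and for most of them the opposite strand of the CpG was not read at that minimum.

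The genes that held the deeply read cytosines on named chromosomes were counted by family and by number. A total of 697 of the 9389 placed genes with read cytosines held at least 1 of them, and 1.17% of the read cytosines in genes were over the threshold. Homeobox and related transcription factors, which lay down tissue identity in development and often carry long CpG-dense stretches, had 91 of them in 22 of 100 genes, or 1.98% of their read cytosines. In 19 of these 22 genes the mean level was under 5%, and the highest was 7.75%, in Lhx3. Pax2, a factor of kidney and midbrain-hindbrain development, had 17 cytosines in 6 loci at 4.44%, at a median depth of 32.7 times, and Lhx9 had 10 at 2.27%. Zinc finger genes had 59 in 18 of 142 genes, or 1.65%, with 15 of the 18 under 5%. The exceptions among them were Zbtb20, a factor that hippocampal neurons use in development, at 14.1%, Znf189 at 24.7% and Znf804b at 74.2%.

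Other families held few. Protocadherins, adhesion molecules of neurons, had 7 in Pcdh1 and Pcdh18 of 6 genes with reads (2.52%), and ribosomal protein genes had 3, all in Rpl22, of 55 genes (0.226%). Imprinted genes, of which only 1 parental copy is active, had 9 in 2 of 11 genes (2.61%). Nnat, which codes for the small membrane protein neuronatin, had 8 cytosines at 1.13%, and Igf2, an insulin-like growth factor, had 1 at 3.26%, so that neither had an intermediate level. Genes with a LOC symbol, which have no other name, had 183 in 46 of 816 genes (1.38%). Of the small RNA genes, 1 of 47 with reads held 1 cytosine (0.538%). None of the 12 placed ribosomal RNA genes had a cytosine with enough reads in every animal. Ribosomal RNA genes without a named sequence in the table were not assigned. The positions of 1 of them, LOC113458446 (2293580 to 2293732), hold 6 deeply read cytosines on scaffold JH996457.1 at 58.0% and 338 times the median depth, but the table does not give the scaffold of this gene. Histone and olfactory or vomeronasal receptor genes were listed under none of the symbols searched, and Dkk3, Fzd10 and Enpp2, which the study names, held no deeply read cytosine among 93 read ones.

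Single genes with many deeply read cytosines fell into unmethylated and intermediate ones. Zc3h4, a zinc finger protein that limits non-coding transcription, held 28 in 1 locus on linkage group LG4 (18102207 to 18102890) at a level of 0.511% ± 0.246 (SD, n = 23) and a depth of 23 times the median. Ptch1, the receptor of Hedgehog ligands, held 20 at 0.988%, Tfap2a 17 at 2.43%, and Nr2f2, an orphan nuclear receptor of neuronal development, 16 at 1.02%. Npas3, a brain transcription factor, held 19 in 3 loci with a mean of 3.63%, from 0.299% to 44.6% per cytosine. Kmt2a, a histone H3 lysine methyltransferase, held 29 in 3 loci with a mean of 29.2%, from 0.147% to 74.5% per cytosine, so that unmethylated and intermediate loci lay in 1 gene.

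The 10 loci with the most cytosines were mostly intermediate. The largest, on chromosome 22 from 10656712 to 10657299, held 41 cytosines in the spans of Unc45a, a myosin chaperone, and of the neighboring LOC101987615, at a level of 36.1% ± 12.2 (SD, n = 23). A further locus of 23 cytosines lay near it, from 10660155 to 10660581 in Hddc3, a phosphohydrolase, at 38.1% ± 11.4. Within Kmt2a on chromosome 5, the 25 cytosines from 38761606 to 38761728 had 33.8% ± 7.17 at 121 times the median depth. On linkage group LG10, 21 cytosines from 11082040 to 11082198, 24652 bp from the pseudogene LOC101989310, had 64.1% ± 8.13 at 295 times. On scaffold JH996694.1, 34 cytosines from 47866 to 48108 had 40% ± 8.85 at 178 times, and on scaffold JH996676.1, 30 from 68542 to 69455 had 38.6% ± 5.97 at 496 times.

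The remaining 4 of these loci were near 1 end of the scale. Beside the unmethylated locus of Zc3h4, the 22 cytosines of scaffold JH996432.1 from 10875204 to 10875649 had 2.63% ± 0.547. The 29 cytosines of scaffold JH996429.1 from 15006583 to 15006799 had 90.4% ± 1.90, and the 23 of linkage group LG5 from 1723694 to 1723938, 68915 bp from LOC102000446, had 86.9% ± 2.14. The SD between animals was thus 5.97 points or more at the 6 intermediate loci and 2.14 points or less at the others.

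The deepest loci off the mitochondrial genome were intermediate as well. On scaffold JH996446.1, 10 cytosines from 3311425 to 3311522 were read at 767 times the median depth (360 to 1230) with a level of 27.2% ± 7.13. On chromosome 8, 4 cytosines from 27415580 to 27415638, which lay 26091 bp from Dock1, an activator of the GTPase Rac, were read at 737 times (415 to 1220) with a level of 60.4% ± 8.83.

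The intermediate cytosines differed between animals by far more than the reads allow. Over the 981 cytosines between 20% and 80%, the median SD between the 23 animals was 10.5 points, and the SD that their read numbers alone would give was 1.94 points. At all 981 the SD was more than 2 times that counting value. The 22836 other cytosines in this range had a median SD of 21.8 points with a counting value of 5.07 points, at a median of 62 reads for the other cytosines as a whole. The SD between animals was thus lower at the deeply read than at the other intermediate cytosines, and the number of reads differed too; the part of the reads in it was not tested.

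Certain animals were at the ends of the range more often than others. At intermediate loci with at least 3 cytosines, the levels of the animals spanned a median of 29.4 points, and 27 loci spanned over 40 points. Among these intermediate loci, “Attacker” animal 6 had the highest level of all 23 animals at 39 (31.7%) and “Attacker” animal 1 the lowest at 19 (15.4%). Per cytosine within the “Attacker” group, animal 6 was the highest at 480 of 981 (48.9%) and animal 1 the lowest at 436 (44.4%). At the other cytosines of this range the shares for the same animals were 25.2% and 27.3%. The other male groups had a like pattern. “Parental” animal 6 was the highest of its group at 39.1% of the 981 cytosines and animal 1 the lowest at 32.1%, and “Father” animal 5 was the highest at 46.1% and animal 1 the lowest at 37.7%. In “Mother” voles the largest shares were 25.5% (highest, animal 2) and 24.9% (lowest, animal 3). The lowest male of each group was thus from replicates 1 and 2.

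The animal means over the 981 cytosines had these animals at the ends. In “Attacker” voles the lowest was 39.6%, the median 47.8% and the highest 57.6%. In “Parental” voles the corresponding values were 41.8%, 46.5% and 52.3%. The “Father” animals had 42.2%, 43.7%, 44.5%, 52.5% and 53.7%, and in “Mother” voles the lowest, median and highest were 42.8%, 44.0% and 44.2%. All groups overlapped, the group means were 48.0% ± 7.11, 46.4% ± 3.90, 47.3% ± 5.37 and 43.7% ± 0.603 in this order (SD, n = 6, 6, 5 and 6), and the 6 “Mother” animals lay within a narrow band inside the range of the 17 males. Replicates 1 and 2 of all groups were between 39.6% and 44.95% and the other replicates between 41.6% and 57.6%. The difference in spread between groups was not tested.

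**Figure D2:**
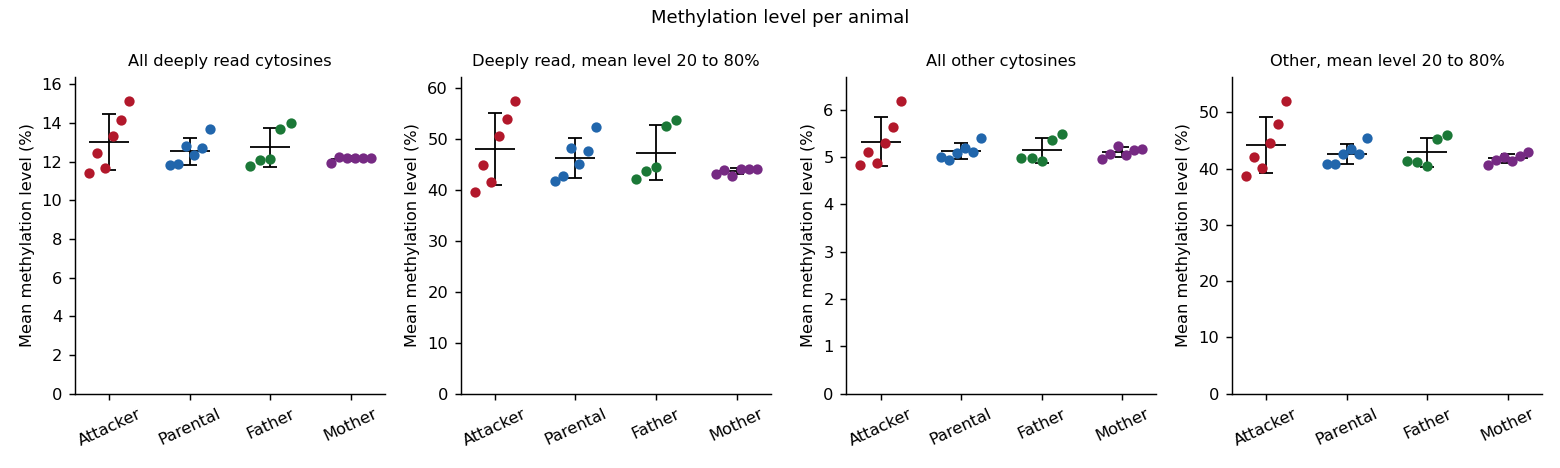
Mean methylation level (vertical axis, percent) per animal (points) over all deeply read cytosines, the 981 deeply read cytosines between 20% and 80%, all other cytosines and the other cytosines between 20% and 80%, with the group mean and SD in black. The 4 groups overlap in every panel, and the 6 “Mother” animals span 42.8% to 44.2% at the intermediate deeply read cytosines.

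At the 3 loci with the highest SD between animals, nearly the whole scale was covered. On chromosome 7, 4 cytosines from 10052188 to 10052272, 16295 bp from the pseudogene LOC101995632, ranged from 13.4% to 86.1% within the “Attacker” group and from 26.7% to 76.3% in “Parental” voles. The “Father” animals had 39.6%, 31.9%, 35.3%, 71.9% and 69.7% there, and “Mother” voles ranged from 16.9% to 49.1%. On chromosome 15, 6 cytosines from 70604 to 70661, 86965 bp from LOC101993909, ranged from 13.6% to 84.0% in “Attacker” voles, from 28.4% to 61.2% in “Parental”, from 38.9% to 80.8% in “Father” and from 33.1% to 41.2% in “Mother” voles. At both, “Attacker” animal 1 was the lowest and “Attacker” animal 6 the highest of the 23 animals. The third locus did not follow these animals. Its 7 cytosines on linkage group LG9, from 25643249 to 25643294 in Rev3l, which codes for the catalytic subunit of a DNA polymerase that copies across lesions, ranged from 20.2% in 1 “Mother” to 80.1% in 1 “Father”, with 39.9% in “Attacker” animal 1 and 39.2% in “Attacker” animal 6.

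At the 3 loci nearest to 50%, “Attacker” animal 6 was again the highest of the 23 animals, and “Attacker” animal 1 was the lowest at 2 of them. The 13 cytosines of scaffold JH996491.1 from 826291 to 826370 had a mean of 50.1% and ranged from 35.4% to 79.4% in “Attacker”, from 45.9% to 61.0% in “Parental”, from 35.9% to 71.4% in “Father” and from 36.4% to 42.1% in “Mother” voles. The 10 of scaffold JH996962.1 from 9230 to 9307 had 50.3% and ranged from 36.6% to 84.9% in “Attacker”, from 31.3% to 63.2% in “Parental”, from 34.7% to 72.6% in “Father” and from 37.4% to 48.3% in “Mother” voles. On chromosome 7, 5 cytosines from 51765294 to 51765367 in Dhrs11, a short-chain dehydrogenase, had 49.3%, from 34.7% to 69.9% in “Attacker”, from 37.3% to 68.7% in “Parental”, from 39.6% to 62.5% in “Father” and from 38.0% to 56.4% in “Mother” voles. None of the 3 loci was at a fixed level of 50% across animals, with SDs of 13.1, 13.9 and 10.2 points (n = 23).

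**Figure D3:**
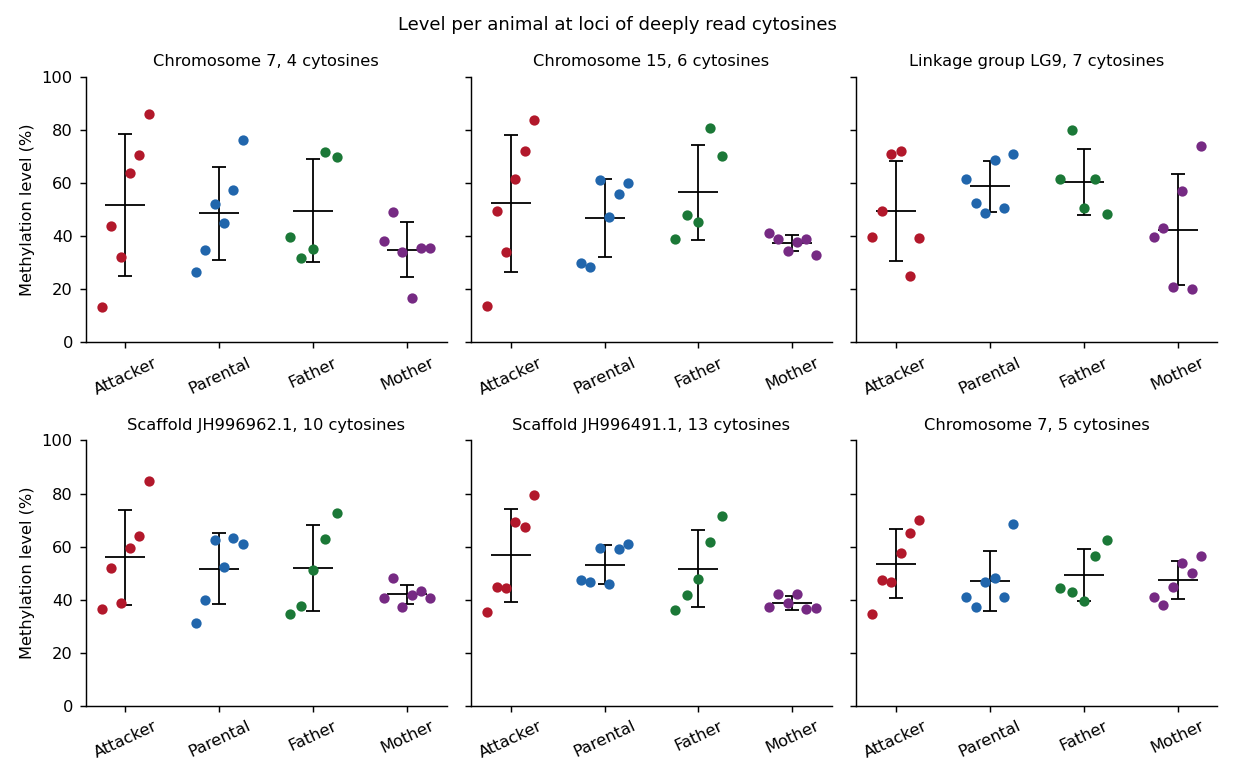
Methylation level (vertical axis, percent) per animal (points) at the 3 loci with the highest SD between animals (upper row) and the 3 loci with a mean level nearest to 50% (lower row), with the group mean and SD in black. At 5 of the 6 loci the lowest or the highest of the 23 animals is an “Attacker”, and the locus on linkage group LG9 shows another order of animals.

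Depth differed between animals too, and it did so most where the level was high. Depth was used by the selection and is described without a test. At loci with at least 3 cytosines, the deepest animal had a median of 3.05 times the relative depth of the shallowest where the level was under 20% (873 loci), 3.48 times between 20% and 80% and 5.83 times at 80% or over (33 loci). The ratio was over 10 at 21 loci, of which 8 had a level of 80% or over, 9 an intermediate one and 4 a level under 20%. “Attacker” animal 6 was the deepest at 14 of these 21 and “Attacker” animal 1 the shallowest at 14.

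The widest range was found on scaffold JH997160.1, at 4 cytosines from 885 to 970. Their depth was 8.81 times the median in “Attacker” animal 1 and 713 times in “Attacker” animal 6, a ratio of 80.9, while their level stayed between 65.3% and 70.5% in all 23 animals. At 6 cytosines of chromosome 4 from 67980537 to 67980743, 66429 bp from Kcnj3, a potassium channel subunit of neurons, the depth went from 13.2 to 514 times in the same animals, a ratio of 39.0. The level there was 75.3% in “Attacker” animal 1 and 84.1% to 91.1% in the others. At 4 cytosines of scaffold AHZW01180863.1 from 362 to 431, the depth ranged from 6.03 to 157 times, again between these 2 animals, and the level from 66.7% to 75.7%. At all 3 loci the depth differed by 26.1 times or more, and on both scaffolds the level spanned under 10 points.

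Medians over many cytosines had only in part the same animals at their ends. At the 290 deeply read cytosines at 80% or over, the median depth ranged from 9.84 times in “Attacker” animal 1 to 38.5 times in “Attacker” animal 5, with 37.6 times in “Attacker” animal 6. It ranged from 13.8 to 31.5 times in “Parental”, from 14.7 to 30.4 times in “Father” and from 12.5 to 20.7 times in “Mother” voles. At other cytosines of that level, it ranged from 1.5 to 6.47 times in “Attacker” and from 1.97 to 3.46 times in “Mother” voles. At deeply read cytosines under 20% it ranged from 11.03 to 12.06 times in replicates 1 and 2 and from 14.95 to 21.75 times in the others, where “Attacker” animal 6 was the lowest. “Attacker” animal 6, the animal with the highest mean level at other cytosines (6.20%, against 4.83% to 5.64% in the remaining “Attacker” voles), had the highest methylated share at the mitochondrial cytosines, 0.653%. The part of these values in the levels of the intermediate cytosines was not tested.

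**Figure D4:**
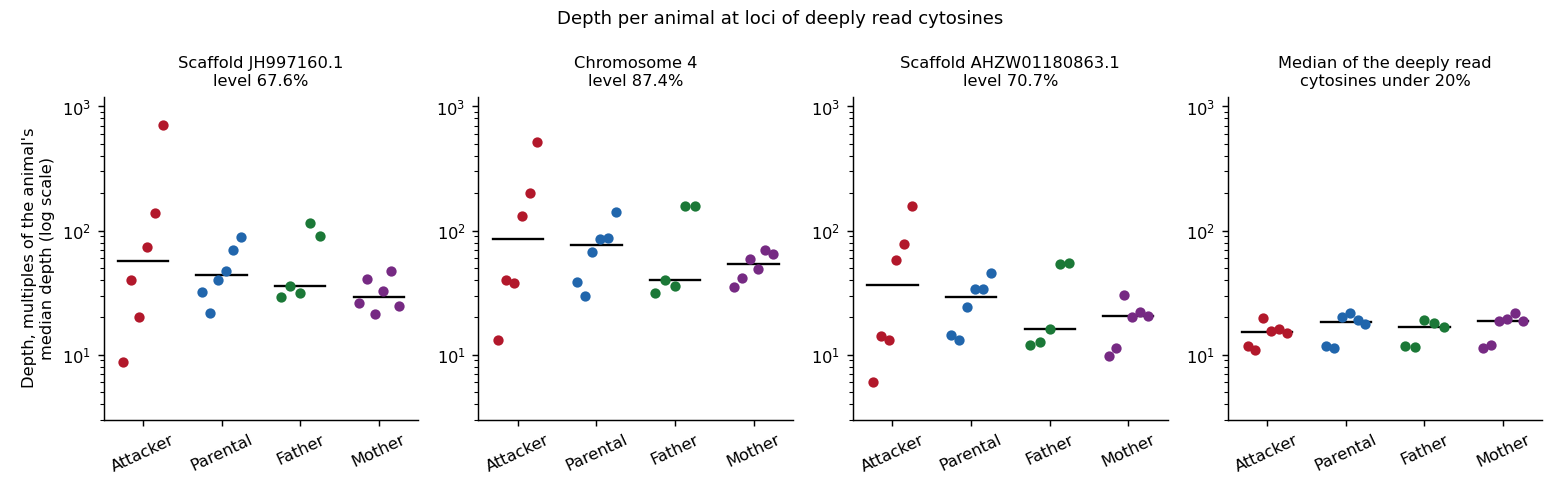
Depth per animal (points; vertical axis, multiples of the animal's median depth, log scale) at the 3 loci with the widest range between animals, and the animal's median over the deeply read cytosines under 20%, with the group median as a line. At the locus of scaffold JH997160.1 the “Attacker” animals span 8.81 to 713 times, and in the last panel all 23 animals lie between 11.03 and 21.75 times.

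The mean level of the deeply read cytosines was similar in the 4 groups. It was 13.03% ± 1.47 in “Attacker” (n = 6, range 11.41% to 15.16%), 12.55% ± 0.693 in “Parental” (n = 6, 11.83% to 13.71%), 12.74% ± 1.02 in “Father” (n = 5, 11.80% to 14.01%) and 12.16% ± 0.110 in “Mother” voles (n = 6, 11.94% to 12.26%). The groups overlapped in all 4 comparisons. “Attacker” exceeded “Parental” by 0.482 points and “Father” by 0.285 points, “Parental” minus “Father” was -0.197 points, and “Father” exceeded “Mother” by 0.581 points, each less than the pooled SD of the 2 groups (1.15, 1.29, 0.853 and 0.684 points). At the other cytosines, these differences were 0.200, 0.179, -0.0209 and 0.0367 points.

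These small differences rested on few animals. Without “Attacker” animal 6, “Attacker” minus “Parental” was 0.0547 and “Attacker” minus “Father” -0.142 points. “Parental” minus “Father” was 0.0351 points without “Father” animal 4 and 0.121 without “Father” animal 5, and “Father” minus “Mother” was 0.263 without “Father” animal 5. Within replicates 1 and 2, the 4 differences were 0.0714, -0.0183, -0.0897 and -0.143 points, and within the other replicates 0.687, 0.305, -0.382 and 1.07 points, so that “Father” exceeded “Mother” in 1 of the 2 sets. Summing the reads, which gives the deepest cytosines most weight, gave larger differences of 3.56, 0.591, -2.97 and 4.37 points. The spread of that measure was larger too, with SDs of 7.1 in “Attacker”, 3.65 in “Parental”, 5.58 in “Father” and 2.07 points in “Mother” voles. Its groups overlapped in all 4 comparisons.

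Single cytosines were compared by a re-implementation of the beta-binomial Wald test of DSS for 2 groups, without smoothing. The study ran DSS with a design like that of its expression analysis. The fit took in every cytosine with 10 reads or more in 4 or more animals of both groups. A cytosine was called with a fitted difference over 15 percentage points and a Benjamini-Hochberg adjusted p under 0.05. Large differences were rare among the deeply read cytosines. A fitted difference over 15 points, without regard to p, was found at 17 of the 6806 in “Attacker” vs “Parental” (0.25%, against 6.79% of all tested), and at 31 (0.455%) in both comparisons of virgin males with “Father” voles, against 6.41% of all for “Attacker” and 5.91% for “Parental”. “Father” vs “Mother” had 63 (0.926%, against 6.15%). The median fitted difference, without sign, was 0.818 to 0.854 points in the 4 comparisons. All tested cytosines take in chromosome X and places with far fewer reads, while the deeply read had a median of 424 reads. The part of the reads in these shares was not tested.

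In “Attacker” vs “Parental”, 0 of the 6806 deeply read cytosines were called, where 0.0159% of all 1266207 tested cytosines were. With the p unadjusted, 8 passed (0.118% of the deeply read, 0.891% of all), with no minimum difference again 0 (0.016% of all), and limma on arcsine-transformed levels called 0. Without a minimum difference, 34 (0.5%) had an unadjusted p under 0.05, against 0.946% of all tested. The lowest p belonged to position 34136356 of chromosome 16, 133794 bp from LOC101983810, with 37.2% ± 9.33 (25.7%, 36.9% and 48.5% as lowest, median and highest) in “Attacker” and 13% ± 9.80 (1.64%, 11.4% and 29.6%) in “Parental” voles. The groups overlapped there, and the adjusted p was 0.417. Without “Parental” animal 5 this cytosine was called.

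In “Attacker” vs “Father”, 0 deeply read cytosines were called by the Wald test (0.0156% of all 1159332, with or without the minimum difference) and 0 by limma. With the p unadjusted, 11 passed (0.886% of all), and 52 (0.764%) had an unadjusted p under 0.05 at any size, against 0.936% of all. The lowest p was at position 4005738 of scaffold JH996447.1, with 4.73%, 7.67% and 15.2% as lowest, median and highest in “Attacker” voles and 46.7%, 23.7%, 21.3%, 25.1% and 21.5% in the “Father” animals. The groups did not overlap, and the adjusted p of the Wald test was 0.508.

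In “Parental” vs “Father”, 0 were called by the Wald test (0.0178% of all 1187448, with or without the minimum difference) and 0 by limma, 14 passed unadjusted (0.873% of all), and 58 (0.852%) had an unadjusted p under 0.05 at any size, against 0.943% of all. Position 32656651 of chromosome 22, 4662 bp from LOC101996324, had the lowest p, with 10.3%, 13.2% and 38.9% as lowest, median and highest in “Parental” voles and 0%, 0%, 3.29%, 1.02% and 8.65% in the “Father” animals. The groups did not overlap, and its adjusted p was 1.0 in the Wald test.

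“Father” vs “Mother” gave 1 call among the deeply read cytosines, against 0.0517% of all 1183211 tested cytosines. It was position 18813 of scaffold JH996867.1. The “Father” animals had 56.3%, 45.3%, 60.3%, 46.2% and 53.2%, and the “Mother” animals 72.1%, 81.1% and 93.5% as lowest, median and highest. The fitted difference of “Father” minus “Mother” was -29.1 points (SE 5.80, adjusted p of the Wald test 0.00225). The “Attacker” and “Parental” males had 49.7% ± 8.89 and 48.5% ± 6.51 (n = 6 each), so that all 17 males were between 38.3% and 62.5% and all 6 females above them. The call was kept when any single animal was left out. However, limma called 0 of the deeply read cytosines over 15 points, and so not this one. With no minimum difference it called 1, which was a different cytosine. With the replicate number as a block, limma called 0 in either case. Of all 665880 cytosines it tested, it called 0 over 15 points with the block and some without it. At the deeply read cytosines, deviations from group means of same-numbered “Father” and “Mother” animals correlated at -0.081 to 0.0017 (5 pairs). Same-numbered animals thus did not vary together here, but the block also takes in the split of replicates 1 and 2 from the others. The part of this split in the blocked result was not tested. Among all deeply read cytosines, 100 (1.47%) had an unadjusted Wald p under 0.05, against 1.2% of all tested.

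The depth of this cytosine differed as well. It was 15.6 times the median in “Mother” voles (10.1 to 23.1) and 37.8 times in “Father” voles (17.8 to 75.7), with 84.1 and 43.0 times in “Attacker” and “Parental” voles and 6.74 times in the shallowest “Attacker”. Of the 14 deeply read cytosines in its locus, positions 18823 and 18834 had nearly the same depths, with levels of 90.0% ± 7.05 and 81.9% ± 9.08 in “Father” (n = 5) and 84.3% ± 5.94 and 76.1% ± 6.46 in “Mother” voles (n = 6). Of these 3 neighboring cytosines only the first passed the test, and at the other 2 the mean was higher in “Father” voles. The same held at every further deeply read cytosine of the locus, from 55.0% against 53.4% at position 19026 to 71.2% against 58.2% at position 19106. The called cytosine thus differed in direction from the rest of its locus. The part of the depth in the call was not tested.

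With no minimum difference, 3 deeply read cytosines passed the adjusted threshold in “Father” vs “Mother” (0.0525% of all tested), all lower in “Father”. The other two were the only deeply read cytosines of their locus on scaffold JH996546.1. At position 734880 the “Father” animals had 1.00%, 1.26%, 0%, 0.801% and 1.59% and the “Mother” animals 9.55%, 11.9% and 16.5% as lowest, median and highest, a fitted difference of -11.5 points (SE 2.10, adjusted p of the Wald test 0.000301). At position 734864 the “Father” animals had 2.15%, 1.60%, 0.0542%, 1.34% and 4.40% and the “Mother” animals 8.20%, 13.4% and 14.9%, a fitted difference of -10.5 points (SE 2.40, adjusted p of the Wald test 0.0262). At both, the highest of the 17 males (3.37% and 5.03%) was below the lowest of the 6 females. Each animal had at least 820 reads there, and the depth was 54.7 times the median in “Father” and 65.7 times in “Mother” voles.

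**Figure D5:**
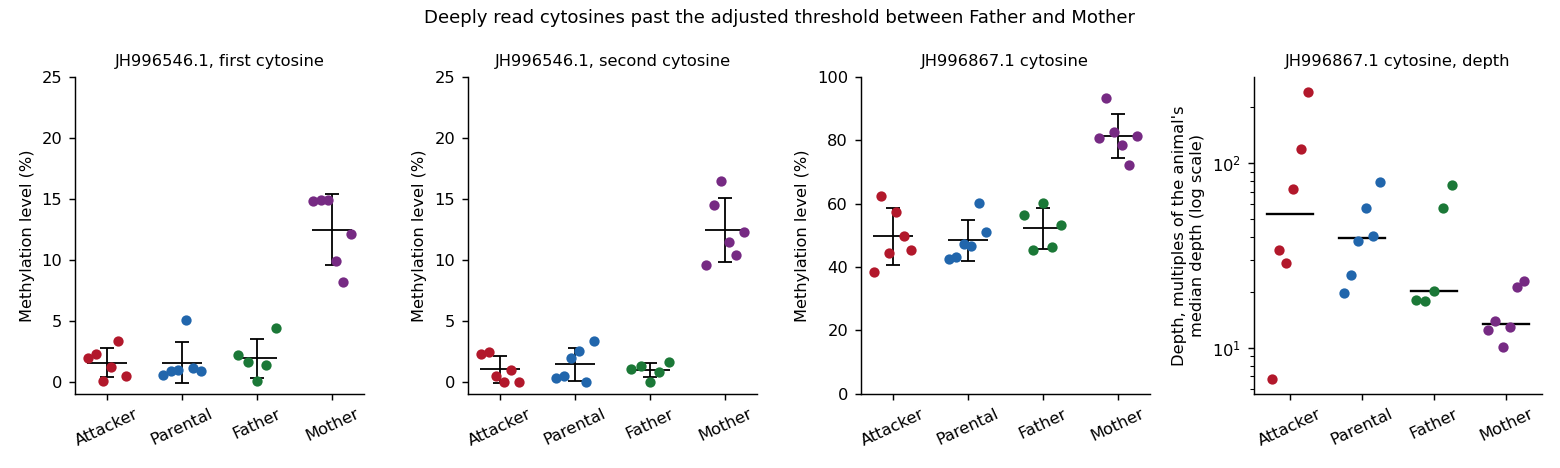
Methylation level (vertical axis, percent) per animal (points) at positions 734864 and 734880 of scaffold JH996546.1 and position 18813 of scaffold JH996867.1, with the group mean and SD in black, and the depth of the last (multiples of the animal's median depth, log scale, group median as a line). The 6 “Mother” animals are above all 17 males in level at the 3 cytosines, and at position 18813 their depth is 10.1 to 23.1 times.

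Unadjusted, 40 deeply read cytosines passed with over 15 points in “Father” vs “Mother” (1.1% of all tested), 33 of them higher in “Father”. After the cytosines given above, the lowest p belonged to position 976818 of scaffold JH996516.1, with a fitted difference under 15 points. It had 4.57% ± 1.77 in “Father” and 14.5% ± 2.83 in “Mother” voles, an adjusted p of 0.103 in the Wald test. The next was position 59276716 of chromosome 1, within the span of Npas3. This position had 23.6% ± 6.06 in “Father” and 7.26% ± 3.56 in “Mother” voles, an adjusted p of 0.162 in the Wald test. It was called without “Father” animal 2 and when the reads of both strands were summed.

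Cytosines whose levels did not overlap between the groups were a larger share of the deeply read than of all cytosines read 10 times or more in each animal. In “Attacker” vs “Parental”, 9 of the 6806 deeply read cytosines (0.132%) did not, against 0.0245% of all 433010 counted. For “Attacker” and “Father” voles this number was 16 (0.235%, against 0.0527%), for “Parental” and “Father” voles 10 (0.147%, against 0.0483%) and for “Father” and “Mother” voles 27 (0.397%, against 0.0963%). The median difference of these was 6.21, 3.89, 3.36 and 10.4 points in the same order, and 0, 3, 2 and 7 were over 15 points. The deeply read cytosines had a median of 424 reads and the others 62, and the part of the reads in these counts was not tested.

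Depth, which the selection used, was similar in “Mother” voles and males. The ratio of the mean relative depth in “Mother” voles to that in the 17 males had a median of 1.06 over the 6806 cytosines, with 0.776 and 1.31 as the 5th and 95th percentiles. Position 3650032 of chromosome 5, 3612 bp from LOC101998094, was the only one whose depths did not overlap (0.0147% of the deeply read, against 0.018% of all 433010 counted), with 6.55 to 13.8 times the median in “Mother” voles and 18.7 to 54.4, 20.9 to 34.3 and 24.5 to 38.7 times in “Attacker”, “Parental” and “Father” voles. Its level was 82.6% ± 11.7 in “Mother” (n = 6), 69.3% ± 3.97 in “Father” (n = 5), 72.5% ± 6.15 in “Attacker” and 74.6% ± 5.78 in “Parental” voles (n = 6 each), with overlap between all groups.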

How the data were processed

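RRBS libraries were sequenced by the authors single-ended over 100 bp, trimmed in Trim Galore and mapped by Bismark against the prairie vole genome, MicOch1.0. The deposited table of each of the 23 animals lists, per CpG cytosine and strand, the count of reads and the count of those called methylated, without normalization. The counts were used as deposited. How reads with several equally good places were kept is not given in the sources used here, and removal of duplicate reads is not stated. Both bear on depth at sequences with several copies, and PCR amplification bears on relative depth.

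Relative depth was the number of reads over the median of the animal's listed cytosines. The cytosines, gene lists and tests were chosen with earlier results of these data known. Named were the 10 loci with the most cytosines, the 5 deepest, the 3 nearest 50%, the 3 with the highest SD of the level and the 3 with the widest depth range (the last 3 sets among loci with at least 3 cytosines), every called cytosine, 3 cytosines on each side of the threshold, and, where none was called, the one with the lowest p. In “Father” vs “Mother”, cytosines that passed with no minimum difference and the next ones by p were named too. Genes were RefSeq spans of MicOch1.0 without exons or strand. Families were matched by symbol.

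The Wald test of DSS was re-implemented, with 0.5 methylated reads per 1 read added in the group mean, fitted to the animals of the 2 groups at every cytosine that reached 10 reads in 4 or more animals on both sides, adjusted over all of them, and tested on simulated counts. Replicates are separate animals. Deviations from group means at the deeply read cytosines correlated over 0.1 in all 5 same-numbered “Attacker” and “Father” pairs (0.13 to 0.35). They did so in 3 of 6, 3 of 5 and 0 of 5 pairs of the other comparisons. The labels name no pairing, and the Wald test treated the animals as unpaired in every comparison. Only limma with the replicate number as a block took the numbers in. The part of the split by replicate number in these correlations was not tested. The study worded its own threshold as an unadjusted p. Means over the cytosines have no test. Alternatives covered the depth rule, the joining distance, the coverage minimum, strands, limma with and without the replicate number, and each animal left out. Splitting by replicate, leaving out mitochondrial cytosines and another scaling of read weights were added after the data were seen. Sequences are not printed, since the genome was not used here. The tools were R 4.3.3 with limma 3.58.1, and numba 0.67.0, scipy 1.17.1, matplotlib 3.10.9, pandas 2.3.3 and numpy 2.4.6 under Python 3.11.15.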

Additional observations from a re-analysis of the deposited data

Results flagged for a closer look

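Values that stood apart from the rest of their group in the 120 sets of 5 or 6 animals examined were 9, where chance gives about 1 in 20, or 6.0. In the “Mother” group, 1 animal had the lowest mean level over the deeply read cytosines, 11.9%, against 12.18% to 12.26% in the others. In “Attacker” voles, animal 6 had the highest methylated share at the mitochondrial cytosines, 0.653%, the highest level at the mitochondrial locus from 227 to 418, 0.655%, and the highest level at the locus of scaffold JH996446.1, 51.0%. “Attacker” animal 1 had the lowest level at the chromosome 4 locus, 75.3%. In “Parental” voles, animal 1 had the highest level at the mitochondrial locus from 15628 to 16183, 0.879%, and animal 6 the highest at the Dhrs11 locus of chromosome 7, 68.7%. In “Mother” voles, animal 2 had the highest level at the Zc3h4 locus, 0.923%, and at the chromosome 8 locus, 63.5%.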

How the results depend on the processing

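The number of deeply read cytosines was set by the rule: 16913 at 3 times the median depth, 2385 at 10 times, 36584 when only the median over animals had to reach 5 times, and 2761 when the median was taken over cytosines read in all animals. The share between 20% and 80% was 10.9%, 20%, 12.5% and 19.5% in this order, and the share off the named sequences 31.5%, 38.0%, 30% and 37.0%. Joining within 100 bp or 2000 bp kept the number of loci within 1.5 times. The mean level difference became 3.56 (“Attacker” vs “Parental”), -2.97 (“Parental” vs “Father”) and 4.37 points (“Father” vs “Mother”) over summed reads, and -0.143 for “Father” vs “Mother” in replicates 1 and 2. Over summed reads the group SDs were 2.07 to 7.1 points, and the groups overlapped. At 3 and 10 times the median depth the 4 differences were 0.415 and 0.795, 0.321 and 0.365, -0.0936 and -0.43, and 0.251 and 1.2 points, the last over the pooled SD of 0.684 at 5 times. A mean over loci gave 0.319 points in “Father” vs “Mother”. Calls without adjustment numbered 8, 11, 14 and 40. In “Father” vs “Mother”, 3 passed with no minimum difference and 4 with strands summed, which added position 59276716 of chromosome 1, position 69213788 of chromosome 6 and position 4650 of scaffold JH997784.1. With 1 animal left out the calls ranged from 0 to 1 in “Attacker” vs “Parental” and from 1 to 2 in “Father” vs “Mother” (2 without “Father” animal 1, 2 or 5, through position 51860155 of chromosome 19, position 59276716 of chromosome 1 and position 32656651 of chromosome 22). In limma, “Father” vs “Mother” gave 0 calls with and 0 without the replicate block, and the block gave 0 in the other comparisons too. The cause of these changes was not tested. In “Attacker” vs “Father”, deviations of same-numbered animals correlated at 0.13 to 0.35 (5 pairs). The labels name no pairing, and the part of the split by replicate number in this was not tested. In that comparison limma called 0 deeply read cytosines without the block. The block thus had no call to remove, and this result cannot show whether pairing matters. Elsewhere, correlations over 0.1 were found in 3 of 6 pairs of “Attacker” vs “Parental” and 3 of 5 of “Parental” vs “Father”. “Father” vs “Mother” had 0 of 5.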
